A study of Mus musculus with 10 samples.

Results

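Peak calls from ATAC-seq were examined at 9 genes of monocytes and macrophages, namely F13a1, Fcgr1, Ly86, Ly6c2, Ccr2, Cx3cr1, Klf4, Cd14 and Clec4a2, in mouse bone marrow progenitors with leukaemia alleles. ATAC-seq marks open chromatin by the insertion of sequencing adapters with a transposase. Peaks of 8 libraries that shared at least 1 bp were merged into 103446 regions. A region belonged to a gene when its midpoint lay in that gene, or when that gene was the nearest protein-coding gene within 100 kb. This gave 87 of the 103446 regions, of which 31 belonged to Ly86, 15 to F13a1, 10 to Klf4, 8 to Cx3cr1, 7 each to Fcgr1 and Ccr2, 4 to Ly6c2, 3 to Cd14 and 2 to Clec4a2. Assignment to the nearest gene does not show that a region regulates that gene.

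The cells were haematopoietic stem and progenitor cells (HSPCs), taken as the lineage-negative fraction of the bone marrow of C57BL/6 mice with a lineage depletion kit, and each library was made from 100000 cells. There were 4 genotypes with 2 libraries each: wild type (WT), Npm1c (Npm1flox-cA/+;Mx1-Cre+), Flt3-ITD (Flt3ITD/+) and the double mutant (DM; Npm1flox-cA/+;Flt3ITD/+;Mx1-Cre+). Npm1c is the mutant nucleophosmin of acute myeloid leukaemia that is held in the cytoplasm, and Flt3-ITD is an internal tandem duplication that makes the FLT3 receptor kinase signal without its ligand. In the Npm1c and DM mice the Npm1 allele is switched by the interferon-inducible Mx1-Cre, which the labelled WT and Flt3-ITD genotypes do not list, so the Cre and the Npm1c allele cannot be told apart. The age and sex of the mice and any induction of the Cre are not stated, and the 2 libraries of WT neutrophils in the series were not analysed here.

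Monocytes arise in the bone marrow from granulocyte and monocyte progenitors under the control of PU.1, IRF8, C/EBP factors and KLF4, leave the marrow through CCR2 and circulate as classical Ly6C-high or patrolling CX3CR1-high cells. In tissues they can become macrophages, which sense microbes through CD14 and the LY86-RP105 complex and take up antibody-coated particles through Fc receptors such as FCGR1.

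The promoter windows show which of these start sites carried peaks. A RefSeq table (GRCm38.p6) gave 10 windows of 300 bases, from 250 bases before to 50 after a start site, for 8 of the 9 genes. The 5 windows below are shown because 4 of them carried peaks in some libraries and not in others, and that of Cx3cr1 had a peak in all 8 libraries. Capitals mark matches, on either strand, to 3 of 6 motifs searched: GAGGAA (PU.1), TTCNNNGAA (STAT) and TGTGGT (RUNX, here as its reverse complement ACCACA). Each sequence runs 5′ to 3′ on the gene's own strand.
F13a1, chr13:37049164-37049463, minus strand: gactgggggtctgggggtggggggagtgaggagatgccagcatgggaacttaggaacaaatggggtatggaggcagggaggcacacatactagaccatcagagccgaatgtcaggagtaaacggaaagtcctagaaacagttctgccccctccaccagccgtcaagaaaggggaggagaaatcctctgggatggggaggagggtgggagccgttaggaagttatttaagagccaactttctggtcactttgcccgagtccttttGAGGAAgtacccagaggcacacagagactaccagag
Fcgr1, chr3:96293920-96294219, minus strand: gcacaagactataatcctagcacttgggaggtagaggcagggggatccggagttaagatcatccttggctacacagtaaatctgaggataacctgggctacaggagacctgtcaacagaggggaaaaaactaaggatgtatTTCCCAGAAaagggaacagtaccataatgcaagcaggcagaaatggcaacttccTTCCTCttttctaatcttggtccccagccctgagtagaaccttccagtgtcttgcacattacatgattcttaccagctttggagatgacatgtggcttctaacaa
Ly86, chr13:37345095-37345394, plus strand: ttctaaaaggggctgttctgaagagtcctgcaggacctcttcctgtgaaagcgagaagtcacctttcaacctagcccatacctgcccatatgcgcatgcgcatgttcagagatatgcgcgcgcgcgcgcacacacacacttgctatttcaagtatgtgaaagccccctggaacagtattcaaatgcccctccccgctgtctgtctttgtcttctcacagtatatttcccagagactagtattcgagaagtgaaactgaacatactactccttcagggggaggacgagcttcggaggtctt
Ccr2, chr9:124101933-124102232, plus strand: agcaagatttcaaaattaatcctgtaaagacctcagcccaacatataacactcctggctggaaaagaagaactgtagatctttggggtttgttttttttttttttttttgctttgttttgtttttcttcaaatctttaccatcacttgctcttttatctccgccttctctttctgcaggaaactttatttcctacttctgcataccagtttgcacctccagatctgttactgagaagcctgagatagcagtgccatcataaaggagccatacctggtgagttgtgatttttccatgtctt
Cx3cr1, chr9:120068247-120068546, minus strand: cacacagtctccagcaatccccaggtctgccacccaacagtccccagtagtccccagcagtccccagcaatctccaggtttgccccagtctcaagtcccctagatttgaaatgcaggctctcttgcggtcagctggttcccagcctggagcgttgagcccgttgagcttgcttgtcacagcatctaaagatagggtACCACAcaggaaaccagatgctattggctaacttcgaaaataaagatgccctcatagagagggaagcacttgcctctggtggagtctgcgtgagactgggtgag

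At F13a1, which encodes the A subunit of coagulation factor XIII, peaks covered 200 and 173 bp of this window in DM and 170 bp in Flt3-ITD replicate 1, and 0 bp in the other 5 libraries. At Ly86, which encodes the MD-1 protein that pairs with the toll-like receptor homologue RP105, the coverage was 129 and 0 bp in WT, 0 bp in both Npm1c libraries, 194 and 211 bp in Flt3-ITD and 266 and 300 bp in DM. At Ccr2, the receptor that draws monocytes out of the marrow, it was 157 and 0 bp in WT, 160 and 178 bp in DM and 0 bp in the 4 libraries of the single alleles. All 3 start sites thus had a peak in both DM libraries and in neither Npm1c library. At Fcgr1, the high-affinity receptor for immunoglobulin G, the window was covered over 199 and 0 bp in WT, 0 and 128 bp in Npm1c, 174 and 199 bp in Flt3-ITD and 246 and 265 bp in DM, so only WT replicate 2 and Npm1c replicate 1 lacked a peak there. The windows of Cx3cr1, the fractalkine receptor, and of Klf4 were covered in every library, over 275 to 300 and over 300 of their 300 bases. The windows of Ly6c2 and Clec4a2, and a second start site of F13a1 further upstream at chr13:37050195-37050494, had no peak in any library.

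Of 32619 promoter windows in the genome, 35.9% had a peak in all 8 libraries. A window or region is called gained here when both libraries of the first genotype had a peak in it and neither library of the second did, and lost in the opposite case. Between DM and Npm1c, 3 of the 10 windows were gained (F13a1, Ly86 and Ccr2), and 2% of all windows were. Between DM and WT, 1 window was gained (F13a1), against 0.561% of all windows, and between DM and Flt3-ITD 1 (Ccr2), against 1.29%. None was gained by Npm1c or Flt3-ITD against WT, where 0.135% and 0.0797% of all windows were. None was lost in any comparison. Only those of Cx3cr1 and Klf4 had peaks in both WT libraries or in both Npm1c libraries, so no other could be lost against these genotypes. Of all windows, Npm1c, Flt3-ITD and DM lost 1.92%, 2.22% and 2.87% against WT. DM lost 2.12% of all windows against Npm1c and 0.779% against Flt3-ITD. With 10 windows and such shares, the absence of losses says little about these genes. The motifs were common in promoter windows: GAGGAA occurred in 28.2%, TGTGGT in 16.6% and TTCNNNGAA in 8.34% of all windows of this length. Counted from the start site, GAGGAA stood at bases 14 to 19 of F13a1 and, in reverse, at bases -55 to -50 of Fcgr1, which also had a STAT match at bases -109 to -101. The other 3 motifs were TTNNGCAA (C/EBP, in 10.9% of windows), TGANTCA (AP-1, in 7.85%) and an ETS-IRF composite that can overlap a PU.1 match (in 2.73%), of which only the AP-1 motif was found at a listed gene, Clec4a2. These matches are a description of letters and not of bound factors.

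The lists differed in length. Between 43825 peaks (Flt3-ITD replicate 1) and 80916 peaks (WT replicate 1) were deposited per library, covering 24.2 to 50.2 Mb, and the labels do not state the read depth behind them. Each library had peaks at 9 of 10 stem and progenitor markers, Kit and Cd34 among them in every case. At the 9 genes, all 26 regions that were called in only 1 of the WT libraries were called in WT replicate 1. Of all regions, 21.5% were called in only 1 of the WT libraries. WT replicate 1 also had the more calls there, at 75.4% of all regions against 58.2% in WT replicate 2. An excess of calls in WT replicate 1 was thus not particular to these genes. Counts of regions against WT are therefore also given with 1 WT library left out, here or in the closing section. Differences at single genes are given so where their call or sign changed. Promoter windows, peak widths and marker lists are given with both only. The labels name biological replicates but no animals, so p-values measure only the spread between these libraries.

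DM libraries had the most calls at the 9 genes. Of the 87 regions, 62 and 72 were called in DM, 43 and 44 in Flt3-ITD, 32 and 30 in Npm1c and 58 and 32 in WT. In DM replicate 2 this was 82.8% of these regions, against 58% of all regions, and in DM replicate 1 71.3% against 50.4%. In Npm1c it was 36.8% and 34.5%, against 57% and 63.1% of all regions. WT replicate 1, with 66.7%, lay near DM replicate 1, whereas WT replicate 2 had 36.8%. The DM libraries were above every other library both in number and as a share, and the Npm1c libraries were at or below the lowest WT library. Fewer cells of a type and less open chromatin per cell cannot be told apart in such bulk samples.

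**Figure D1:**
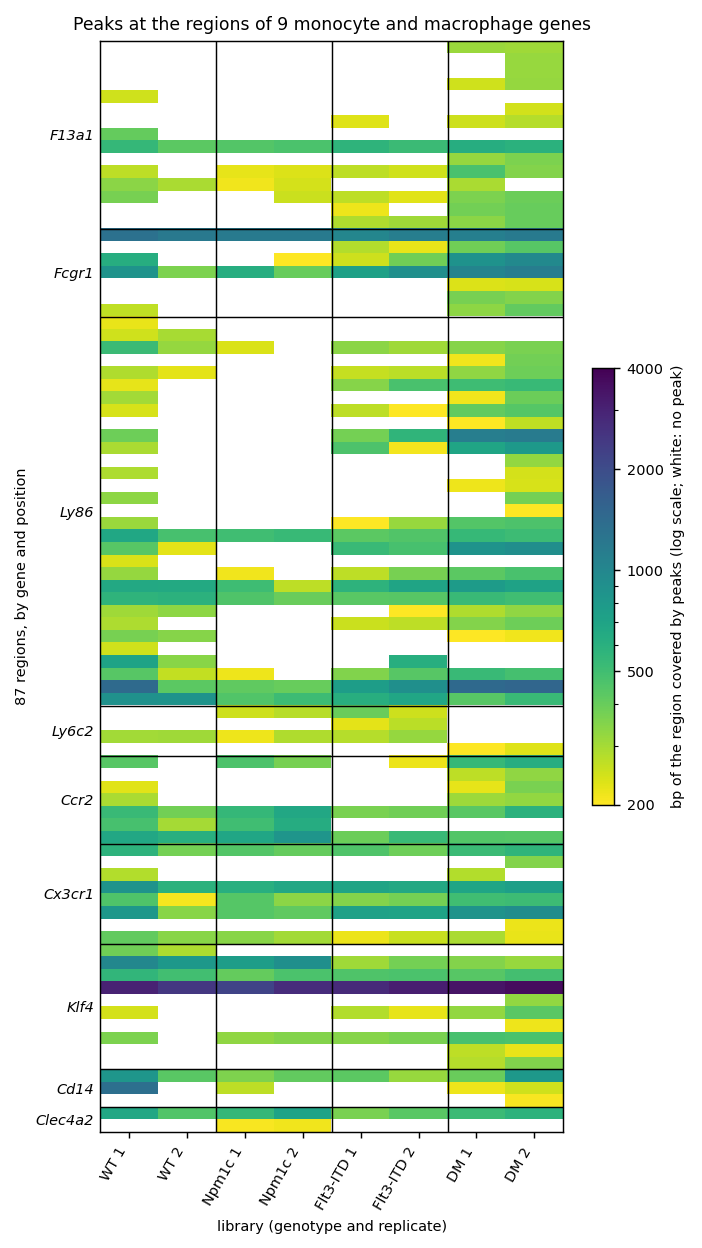
Length covered by peaks (bp, colour on a log scale, white for no peak) at each of the 87 regions (rows, by gene and position) in the 8 libraries (columns). Regions of Ly86, F13a1 and Fcgr1 called in both DM libraries are often white in both Npm1c libraries, and WT replicate 1 has 26 calls that WT replicate 2 lacks.

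Against Npm1c, DM gained 31 of the 87 regions, or 35.6%, against 12.6% of all regions. Of these, 14 were at Ly86, 6 at F13a1, 4 at Fcgr1, 3 each at Ccr2 and Klf4 and 1 at Ly6c2. It lost 4, or 4.6%, against 19.3% of all regions: 2 at Ly6c2 and 1 each at Ccr2 and Clec4a2. Gains thus outnumbered losses at these genes, while over all regions losses outnumbered gains. Of the 31 gained regions 8 lay inside a gene and 3 had their midpoint within 1 kb of a start site. Regions of 1 gene share their surroundings and are not independent, so no test was made over them.

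Against WT, DM gained 16 regions, or 18.4%, against 6.93% of all regions, and lost 5, or 5.75%, against 20.9%. The gains were 6 at F13a1, 3 each at Fcgr1 and Ly86, 2 at Klf4 and 1 each at Ly6c2 and Ccr2. With WT replicate 1 left out, 34 regions were gained, against 15.7% of all regions, and with WT replicate 2 left out 16, against 6.97%. With DM replicate 1 left out there were 26, against 14.1%. Against Flt3-ITD, DM gained 18 regions, or 20.7%, against 10.6% of all regions (30, against 19.9%, without DM replicate 1). They were 5 at Ly86, 3 each at F13a1, Fcgr1 and Ccr2, 2 at Klf4 and 1 each at Ly6c2 and Cd14. The 3 regions lost against Flt3-ITD, 3.45% against a background of 3.44%, were all at Ly6c2. The comparisons of DM with the other genotypes share the DM libraries, and those with WT share the WT libraries.

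The single alleles moved fewer of these regions. Npm1c gained 2 regions against WT (1 each at Ly6c2 and Clec4a2), or 2.3%, against 2.71% of all regions, and lost 7 (6 at Ly86 and 1 at Klf4), or 8.05%, against 6.26%. Both shares were near those of all regions. Without WT replicate 1 the gains were 5, against 7.49%, and without WT replicate 2 the losses were 26, against 17.3%. Flt3-ITD gained 4 regions (2 at Ly6c2 and 1 each at F13a1 and Fcgr1), or 4.6%, against 0.852%, and lost 5, or 5.75%, against 16.2%. Without WT replicate 1, the gains of Flt3-ITD were 16, against 4.62% of all regions, and without WT replicate 2 its losses were 18, against 29.7%. With 2 libraries on either side, the smallest two-sided p of an exact test is 0.333 for a region, so these calls are descriptions.

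**Figure D2:**
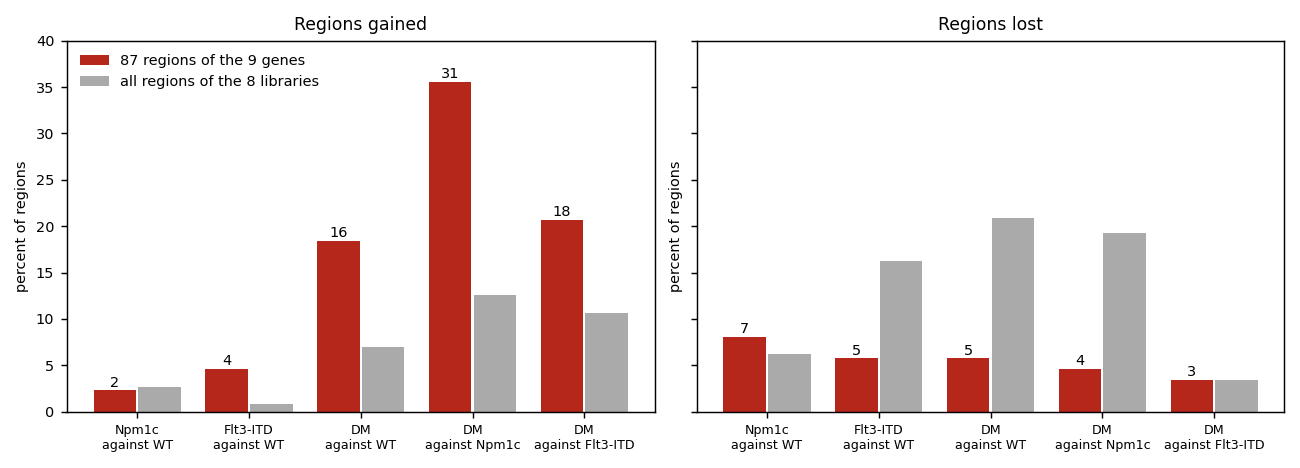
Percent of regions gained (left) and lost (right) in each of the 5 comparisons, for the 87 regions of the 9 genes (red, with counts) and all 103446 regions (grey). At the 9 genes the gains of DM, 16 to 31 regions, are shares above those of all regions, and the losses against WT and Npm1c are shares below them.

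The pattern of calls over all 8 libraries was next considered. A peak in every library was found at 20 of the 87 regions, 23%, against 25.3% of all regions. The next most frequent pattern was a peak in both DM libraries only, at 12 regions, 13.8% against 5.13%: 3 each at F13a1 and Ly86, 2 each at Fcgr1 and Klf4 and 1 each at Ccr2 and Ly6c2. There was 1 region with a peak in all libraries but both DM, at Ly6c2 (1.15%, against 2.78%). A peak in WT replicate 1 and all 4 Flt3-ITD-bearing libraries occurred at 7 regions, 8.05% against 1.86%, 6 of them at Ly86. Of the 87 regions 29.9% lay inside a gene, against 59.6% of all regions.

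Between the 4 libraries with the Flt3-ITD allele and the 4 without it, 2 regions were called in all carriers and in no others, 2.3% against 0.566% of all regions. They were chr3:96284415-96284850, inside Fcgr1, with 282 and 221 bp covered in Flt3-ITD and 385 and 436 bp in DM, and chr13:37148619-37149021, 98576 bp from F13a1, with 285 and 306 bp in Flt3-ITD and 337 and 403 bp in DM. The opposite pattern, a peak in all libraries without the allele only, was found at 1 region, 1.15% against 8.38%: chr9:124108444-124109068, inside Ccr2, with 480 and 298 bp in WT and 500 and 625 bp in Npm1c. Fisher's exact test for each gave p = 0.0286, the smallest that 4 against 4 allows, and an adjusted p of 0.32 (Benjamini-Hochberg over all regions), so none passed the threshold, nor did any region in the genome (0 adjusted, 9250 unadjusted under 0.05). Without WT replicate 1, 9 regions, against 2.43% of all regions, and without Flt3-ITD replicate 2, 4 regions, against 0.839%, had the carrier pattern. No region of these genes separated the libraries with and without Npm1c, where the shares of all regions were 0.156% and 0.204%, and Fisher's test called 0 regions adjusted and 372 unadjusted.

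To compare genes, the lengths covered by peaks were summed over the regions of each gene and scaled to the mean covered length of the 8 libraries. A value so scaled is a share of all covered sequence and not a read signal. It was tested with limma on log2(bp + 500) over 13429 genes with a mean of at least 500 bp, a filter that all 9 genes passed, and a gene passed at a Benjamini-Hochberg adjusted p under 0.05. The differences on this scale understate the change of genes with little coverage. Ly6c2, with a mean of 535 bp, reached the filter only through Flt3-ITD. Its group means were 249 bp in WT, 451 bp in Npm1c, 1192 bp in Flt3-ITD and 245 bp in DM. Its limma results that involve Flt3-ITD rest on the group that selected it and are descriptions.

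Among the surface receptors, Fcgr1 had a scaled covered length of 2211 and 1417 bp in WT, 1641 and 1490 bp in Npm1c, 3410 and 3197 bp in Flt3-ITD and 5239 and 5037 bp in DM. The DM libraries were highest, Flt3-ITD lay between, and WT and Npm1c overlapped at the bottom. The 4 regions of Fcgr1 gained in DM against Npm1c included chr3:96302577-96302848 and chr3:96328477-96328845, 8743 and 34692 bp upstream, with 235 and 239 bp and 369 and 350 bp covered in DM and none elsewhere. The region at the start site, chr3:96293224-96294184, was covered over 622 and 0 bp in WT, 0 and 200 bp in Npm1c, 251 and 382 bp in Flt3-ITD and 867 and 961 bp in DM, so that the DM peaks were wider than every other. A region 7178 bp upstream (chr3:96300583-96301712) and another 15918 bp beyond the start site, past the end of the gene (chr3:96277400-96278702), had peaks in every library.

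Ly86 showed the widest range. Its scaled covered length was 8100 and 4879 bp in WT, 2752 and 1779 bp in Npm1c, 9667 and 9598 bp in Flt3-ITD and 13368 and 14028 bp in DM. The 4 genotypes did not overlap, with Npm1c lowest and DM highest. Of its 31 regions, the Npm1c libraries had peaks at 8 and 5, the WT libraries at 26 and 13, the Flt3-ITD libraries at 16 and 18 and the DM libraries at 22 and 26.

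The start-site region of Ly86, chr13:37345078-37346240, was covered over 386 and 0 bp in WT, 374 and 563 bp in Flt3-ITD and 1112 and 1154 bp in DM, and had no peak in either Npm1c library. A region 2841 bp into the gene, chr13:37347792-37348580, had the same order, with 294 and 0 bp in WT, 460 and 210 bp in Flt3-ITD, 691 and 789 bp in DM and none in Npm1c. Beyond the 3′ end, chr13:37440469-37441377 was covered over 434 and 227 bp in WT, 523 and 481 bp in Flt3-ITD and 863 and 909 bp in DM, and was among the 6 regions lost in Npm1c against WT. The other 5 lost regions were chr13:37282600-37282953, chr13:37325519-37325909, chr13:37456970-37457315, chr13:37467813-37468180 and chr13:37475871-37476584, of which the first was called in WT only. Regions called in DM only were chr13:37322711-37323090, chr13:37337859-37338123 and chr13:37355685-37355981. Of the 5 regions with a peak in every library, chr13:37481904-37483538 measured 1423 and 426 bp in WT, 415 and 401 bp in Npm1c, 754 and 899 bp in Flt3-ITD and 1433 and 1486 bp in DM. At chr13:37509112-37509988 the order was different, with 877 and 856 bp in WT and 437 to 680 bp in the 6 mutant libraries.

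**Figure D3:**
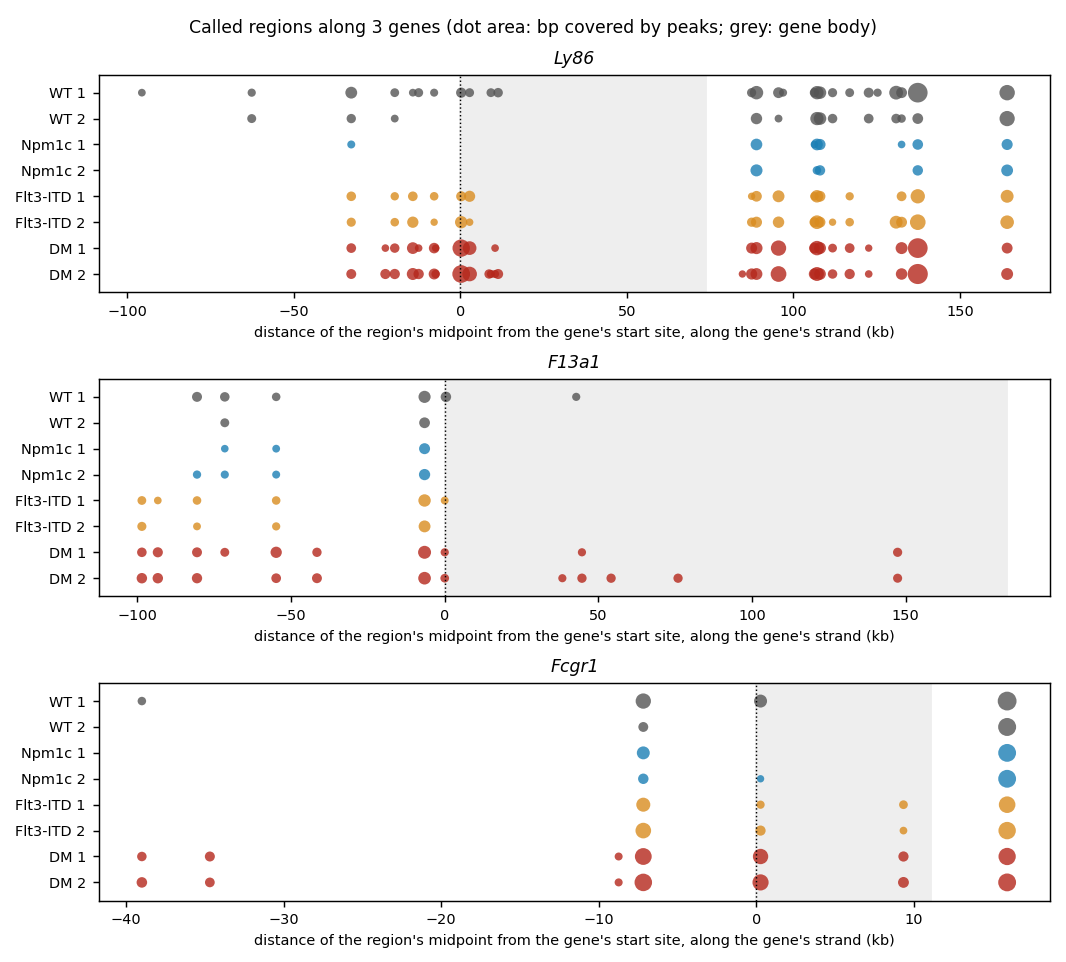
Regions of Ly86, F13a1 and Fcgr1 by distance of the midpoint from the start site (kb, along the gene's strand; grey, gene body), in each library (rows); dot area is the length covered by peaks. Upstream of Ly86 and within it the 2 Npm1c rows hold only 1 dot, while both DM rows hold dots on both sides of the start site.

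Cd14, the lipopolysaccharide co-receptor on chromosome 18, had scaled covered lengths of 1572 and 395 bp in WT, 575 and 346 bp in Npm1c, 641 and 387 bp in Flt3-ITD and 740 and 1356 bp in DM. WT overlapped all 3 mutant genotypes, and both DM libraries were above the 4 libraries of the single mutants, which overlapped each other. The region that covers the gene had a peak of 1346 bp in WT replicate 1, of 268 bp in Npm1c replicate 1 and of 215 and 249 bp in DM, and none in the other 4 libraries. Without WT replicate 2, Cd14 was lower than WT in Npm1c (-1.11, adjusted p = 0.0216) and Flt3-ITD (-1.04, adjusted p = 0.036) by the limma fit described above, and with both WT libraries it was not (-0.51, adjusted p = 0.285, and -0.44, adjusted p = 0.349). Clec4a2, an inhibitory C-type lectin receptor, had 480 and 411 bp in WT, 690 and 768 bp in Npm1c, 548 and 523 bp in Flt3-ITD and 627 and 619 bp in DM, with Npm1c highest and no overlap between genotypes. Its region chr6:123127267-123127484 was called only in Npm1c, over 207 and 213 bp, and chr6:123122987-123123693, 650 bp into the gene, was called in every library.

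Ly6c2 encodes part of the Ly6C antigen by which classical monocytes are sorted, and its order was unlike the rest. The scaled covered length was 219 and 279 bp in WT, 431 and 472 bp in Npm1c, 1353 and 1032 bp in Flt3-ITD and 242 and 249 bp in DM. Flt3-ITD was highest, Npm1c next, and DM lay within the range of WT. A cluster of 3 regions 21203 to 22441 bp beyond its 3′ end made up the signal: chr15:75086790-75087126 was called in the 6 libraries outside DM over 217 to 321 bp, chr15:75085522-75085918 in both single mutants over 251 to 397 bp, and chr15:75086269-75086542 in Flt3-ITD only over 225 and 273 bp. In DM only chr15:75116592-75116823, 4736 bp upstream, was called, over 200 and 232 bp. Ly6c2 and Clec4a2 lie in families of near-identical neighbours, so peak calls there may be affected by reads that fit several copies, and these 2 genes are uncertain.

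Of the chemokine receptors, Ccr2 had 1904 and 1170 bp in WT, 2007 and 2100 bp in Npm1c, 1142 and 1378 bp in Flt3-ITD and 2686 and 2859 bp in DM. DM was highest and Flt3-ITD overlapped WT at the bottom. Besides its start-site region chr9:124101784-124102110 (291 and 0 bp in WT, 309 and 325 bp in DM, none elsewhere), DM gained chr9:124071592-124071922 against all other genotypes and chr9:124099086-124099452 against both single mutants. Other regions ran the opposite way, since chr9:124108444-124109068, inside the gene, had no peak in Flt3-ITD or DM, and chr9:124112506-124113353 was called in every library but covered 603 to 840 bp in WT and Npm1c and 394 to 527 bp in Flt3-ITD and DM. The other region with a peak in every library, chr9:124103123-124103827, measured 367 to 662 bp.

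Cx3cr1 had 2460 and 1689 bp in WT, 2086 and 1791 bp in Npm1c, 3658 and 2904 bp in Flt3-ITD and 3802 and 3778 bp in DM. DM was highest, followed by Flt3-ITD, with WT and Npm1c overlapping. None of its 8 regions was gained or lost in any of the 5 comparisons, and 5 had a peak in every library. The other 3 were called in single DM libraries, over 349 and 219 bp in replicate 2 and 284 bp in replicate 1, the last also over 284 bp in WT replicate 1. At its start site, chr9:120068056-120068977 was covered over 819 and 339 bp in WT, 440 and 415 bp in Npm1c, 724 and 706 bp in Flt3-ITD and 856 and 922 bp in DM.

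Klf4, the zinc finger transcription factor required for patrolling monocytes, had the broadest of the 87 regions, chr4:55529885-55533535, which spans its start site. That region was covered over 2996 and 2475 bp in WT, 2193 and 2722 bp in Npm1c, 2810 and 3125 bp in Flt3-ITD and 3415 and 3651 bp in DM, so DM was highest and WT overlapped both single mutants. The scaled covered length of the whole gene was 4012 and 3719 bp in WT, 3381 and 3731 bp in Npm1c, 6308 and 5559 bp in Flt3-ITD and 6717 and 6933 bp in DM. DM and Flt3-ITD were apart from each other and from the other 2 genotypes. Downstream, chr4:55488593-55489600 ran the other way, with 998 and 813 bp in WT, 756 and 901 bp in Npm1c and 307 to 373 bp in Flt3-ITD and DM. Far upstream, chr4:55630308-55630576 and chr4:55631126-55631478 were called in DM only, 97967 and 98827 bp from the gene.

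F13a1 is a long gene, and it shares its upstream neighbourhood with Ly86: the 2 genes point away from each other across 295100 bp with 0 protein-coding genes of the table between them, and regions in that interval were given to the nearer end. Its scaled covered length was 1567 and 658 bp in WT, 810 and 1009 bp in Npm1c, 2762 and 1592 bp in Flt3-ITD and 4348 and 4586 bp in DM. DM was highest, Flt3-ITD lay above WT, and WT and Npm1c overlapped. Peaks were called at 10 and 12 of its 15 regions in DM and at 2 to 6 in the other libraries. Only chr13:37056485-37057121, 6559 bp upstream, had a peak in every library, over 427 to 619 bp.

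Of the regions of F13a1 gained in DM against WT, 3 were called in DM only: chr13:36901636-36901952 and chr13:37004382-37004704 inside the gene and chr13:37091649-37092011 upstream, which was covered over 321 and 363 bp. The start-site region chr13:37049058-37049363 was covered over 251 and 279 bp in DM, 231 bp in Flt3-ITD replicate 1 and 0 bp elsewhere, and chr13:37143430-37143832 had the same libraries. At chr13:37121656-37122002, 71585 bp upstream, both Flt3-ITD libraries lacked a peak that WT had. The regions nearest to the limit of 100 kb were those of Klf4 at 98827 bp and of F13a1 at 98576 bp within it, and beyond it a region 101174 bp from Ly86, called in WT only over 302 and 321 bp, and another 107776 bp from F13a1, called in DM replicate 2 only.

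**Figure D4:**
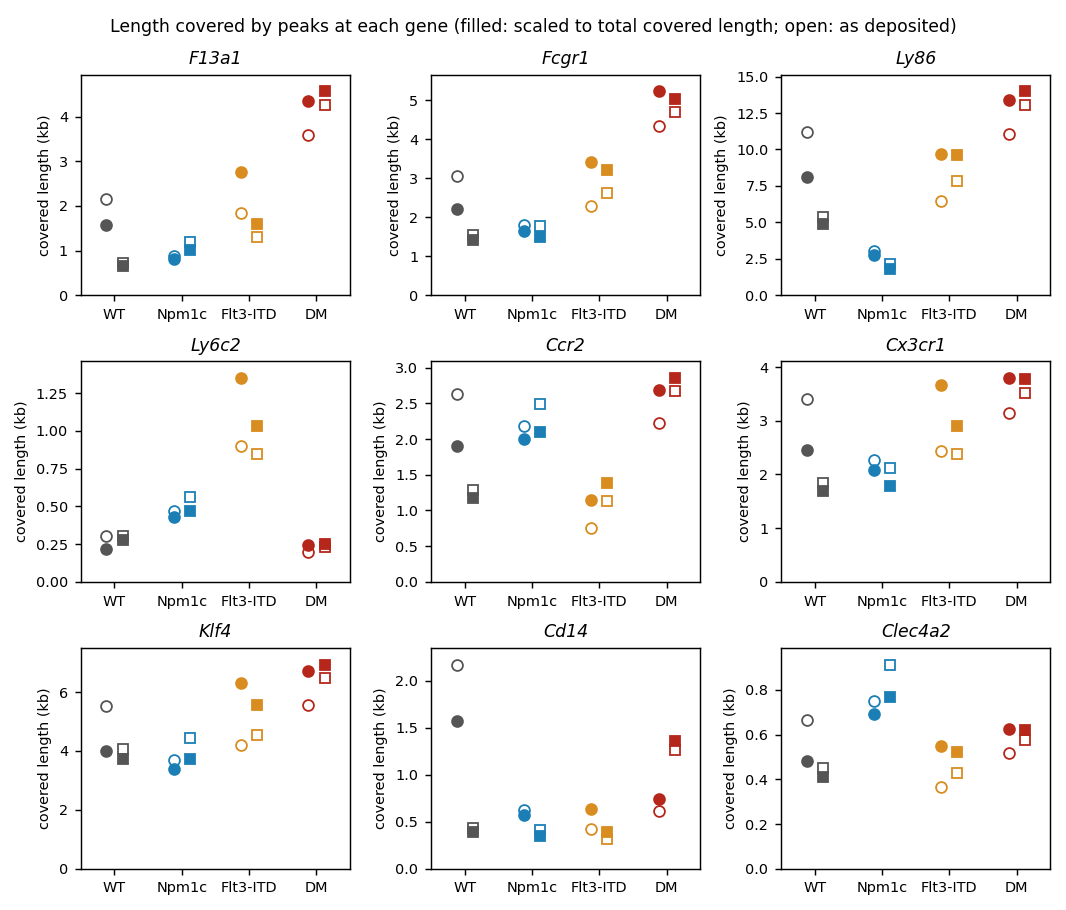
Length covered by peaks (kb) at each of the 9 genes in the 4 genotypes, for replicate 1 (circles) and replicate 2 (squares), scaled to total covered length (filled) and as deposited (open). Scaled, both DM libraries are highest at F13a1, Fcgr1, Ly86, Ccr2, Cx3cr1 and Klf4; as deposited, WT replicate 1 lies among or near them at Ly86, Ccr2, Cx3cr1 and Klf4.

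By limma, 6 of the 9 genes had a larger covered length in DM than in WT, and none a smaller one. Over all genes 19.9% were higher and 25.1% lower. The log2 differences were 1.68 (SE 0.26, adjusted p = 0.000629) for F13a1, 1.31 (SE 0.15, adjusted p = 0.00016) for Fcgr1 and 1.06 (SE 0.21, adjusted p = 0.00234) for Ly86. Those of Klf4, Cx3cr1 and Ccr2 were 0.75 (SE 0.11), 0.75 (SE 0.16) and 0.71 (SE 0.16), with adjusted p of 0.000477, 0.0036 and 0.00558. The call of Ccr2 was lost when regions were limited to 20 kb from a gene (0.28, adjusted p = 0.103), and that of Cx3cr1 with lists cut to equal length (0.64, adjusted p = 0.0635). Cd14 (0.16, SE 0.34), Clec4a2 (0.25, SE 0.15) and Ly6c2 (-0.01, SE 0.17) did not pass. The median of the 9 genes was 0.75, and that of all genes -0.02.

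Scaling bears on this comparison. As deposited, the median log2 difference of all genes was -0.41 between DM and WT, with 3.83% of genes higher and 47.7% lower, and 2 of the 9 genes passed, F13a1 at 1.29 (adjusted p = 0.0153) and Fcgr1 at 0.89 (adjusted p = 0.0168). The unscaled difference of Ly86 was 0.60 (adjusted p = 0.15), and as deposited WT replicate 1 covered 11193 bp there, against 11044 and 13090 bp in DM. At Ccr2 it covered 2631 bp against 2219 and 2668 bp, at Cx3cr1 3400 bp against 3141 and 3525 bp, and at Klf4 5544 bp against 5549 and 6469 bp. At F13a1 and Fcgr1 the DM libraries were above every other library on both scales.

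Between DM and Npm1c, 5 of the 9 genes were higher in DM and none lower, with 30.4% and 28.9% of all genes. Ly86 differed most, by 2.38 (SE 0.21, adjusted p = 9.04e-06), a ratio of 5.21 on the scale with 500 bp added. F13a1 rose by 1.82 (SE 0.26, adjusted p = 0.000175), Fcgr1 by 1.45 (SE 0.15, adjusted p = 2.89e-05), Klf4 by 0.85 (SE 0.11, adjusted p = 8.74e-05) and Cx3cr1 by 0.82 (SE 0.16, adjusted p = 0.00134). The median of the 9 genes was 0.82, and that of all genes 0.03. As deposited, when the median of all genes was -0.26 and 14.2% rose and 39.6% fell, Ly86 (2.05), F13a1 (1.53), Fcgr1 (1.14) and Klf4 (0.52, adjusted p = 0.0441) passed and Cx3cr1 (0.50, adjusted p = 0.0895) did not. Ccr2 (0.36, SE 0.16, adjusted p = 0.0814) and Cd14 (0.67, SE 0.34, adjusted p = 0.116) did not pass with all libraries, and did when either WT library was left out of the shared fit, at adjusted p of 0.0248 and 0.0254 for Ccr2 and 0.031 and 0.0292 for Cd14.

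**Figure D5:**
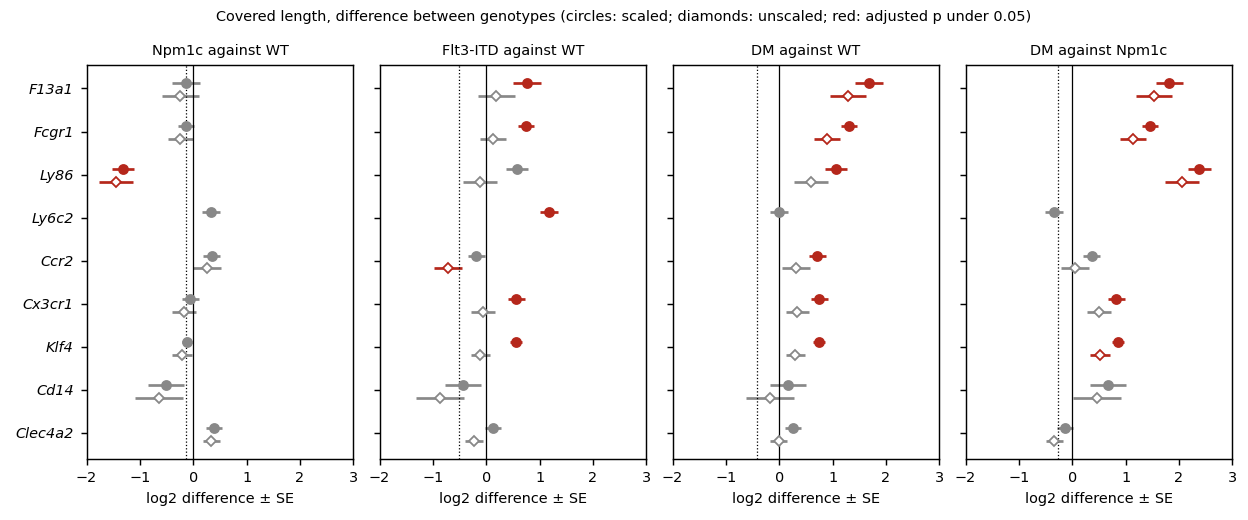
Log2 difference in covered length ± SE at the 9 genes in 4 comparisons, scaled (circles) and as deposited (diamonds), in red where the adjusted p by limma was under 0.05; dotted lines mark the unscaled median of all genes. F13a1, Fcgr1 and Ly86 lie above 1 between DM and Npm1c on both scales; Ly6c2 has no diamond because it did not pass the filter unscaled.

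Ly86 was lower in Npm1c than in WT. In that comparison it was the only one of the 9 genes to pass, at -1.32 (SE 0.21, adjusted p = 0.00165). Of all genes 11.5% were higher and 18.9% lower. In Flt3-ITD against WT its difference was 0.58 (SE 0.21, adjusted p = 0.0586), and it passed without WT replicate 1 (0.91, adjusted p = 0.0126) or without either Npm1c library (adjusted p = 0.0468 and 0.0452). Without WT replicate 2 it was 0.24 (adjusted p = 0.381), and as deposited -0.12 (adjusted p = 0.756). The decrease in Npm1c also passed as deposited (-1.45, adjusted p = 0.026), where the median of all genes was -0.13, with 3.59% higher and 14% lower. Ccr2 (0.35, SE 0.16, adjusted p = 0.131) was higher in Npm1c only without WT replicate 1 (0.60, adjusted p = 0.0217).

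In Flt3-ITD against WT, 5 genes were higher and none lower, with 16% and 14.7% of all genes: Ly6c2 by 1.17 (SE 0.17, adjusted p = 0.00149), Fcgr1 by 0.74 (SE 0.15, adjusted p = 0.0073), Klf4 by 0.56 (SE 0.11, adjusted p = 0.00543), Cx3cr1 by 0.56 (SE 0.16, adjusted p = 0.0246) and F13a1 by 0.76 (SE 0.26, adjusted p = 0.0492). As deposited none of the 9 was higher and Ccr2 was lower (-0.72, adjusted p = 0.0469), Klf4 and Cx3cr1 turned to -0.11 and -0.06, and Ly6c2 was not tested. The median of all genes was then -0.51, with 0.215% higher and 56% lower, so the direction at Klf4 and Cx3cr1 in Flt3-ITD holds only relative to total covered length. Ly86 (0.58 scaled) and Clec4a2 (0.13 scaled), which did not pass, were also below 0 as deposited (-0.12 and -0.23). As deposited, Ly6c2 covered 902 and 845 bp in Flt3-ITD and 200 to 561 bp in the other 6 libraries. It reached the filter only through Flt3-ITD, so its limma result here is a description. Its place among the 5 higher genes was favoured by the filter and adds nothing beside the 16% of all genes. The call of F13a1 was lost when any library other than WT replicate 1 or Flt3-ITD replicate 2 was left out, at adjusted p of 0.0573 to 0.324. It was also lost with a pseudocount of 100 bp (adjusted p = 0.07), no filter (0.0969), equal lists (0.0841) and within 20 kb (0.33, adjusted p = 0.307). With equal lists the calls of Fcgr1 (0.54, adjusted p = 0.0678) and Cx3cr1 (0.42, adjusted p = 0.25) were lost too. Without Flt3-ITD replicate 1, F13a1 was at 0.44 (adjusted p = 0.311) and Cx3cr1 at 0.42 (adjusted p = 0.161), and without WT replicate 2 they were at 0.34 (adjusted p = 0.324) and 0.35 (adjusted p = 0.151).

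Between DM and Flt3-ITD, F13a1 rose by 0.93 (SE 0.26, adjusted p = 0.0209), Ccr2 by 0.90 (SE 0.16, adjusted p = 0.00274) and Fcgr1 by 0.57 (SE 0.15, adjusted p = 0.0185), and Ly6c2 fell by 1.18 (SE 0.17, adjusted p = 0.000854). Of all genes, 14% were higher and 19% lower. The fall of Ly6c2 is a description, since this gene reached the filter only through Flt3-ITD. Klf4 and Cx3cr1, both at 0.19, did not pass. As deposited, with a median of all genes of 0.09, 8.2% higher and 3.49% lower, only Ccr2 passed, at 1.03 (adjusted p = 0.0446), and Ly6c2 was not tested. The rise of F13a1 did not pass without Flt3-ITD replicate 2 (0.61, adjusted p = 0.145) or either DM library, nor did that of Fcgr1 in the same 3 cases (0.53, adjusted p = 0.0822, without Flt3-ITD replicate 2). With equal lists F13a1 was at 0.83 (adjusted p = 0.105), with a pseudocount of 100 bp or no filter its adjusted p was 0.0504 and 0.056, and within 20 kb Fcgr1 was at 0.34 (adjusted p = 0.084). Ly86 (0.49, SE 0.21, adjusted p = 0.0962) did not pass, but passed without WT replicate 1 (adjusted p = 0.0367) or 2 (adjusted p = 0.0383).

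Whether the Flt3-ITD allele had another effect in the presence of Npm1c was tested as the difference between DM against Npm1c and Flt3-ITD against WT. At Ly86 the effect was larger with Npm1c, by 1.81 (SE 0.29, adjusted p = 0.00258), since Npm1c alone was low there and DM high. At Fcgr1 it was larger by 0.71 (SE 0.22, adjusted p = 0.0356). At Ly6c2 it was smaller, at -1.52 (SE 0.24, adjusted p = 0.0023), Flt3-ITD alone being high and DM as low as WT. Ly6c2 reached the filter only through these high Flt3-ITD values, so its interaction is a description. F13a1 (1.06, SE 0.37, adjusted p = 0.0534), Ccr2 (0.55, SE 0.23, adjusted p = 0.1) and Cd14 (1.11, SE 0.49, adjusted p = 0.113) did not pass. Without WT replicate 2 these 3 did, at 1.48 (adjusted p = 0.00936), 0.81 (adjusted p = 0.0131) and 1.70 (adjusted p = 0.00951), and F13a1 also without Flt3-ITD replicate 1 (1.40, adjusted p = 0.0237). Of all genes 14.8% were higher and 12.9% lower in this contrast. As deposited, with a median of all genes of 0.24, 10.2% higher and 1.74% lower, Ly86 passed at 2.17 (adjusted p = 0.0309) and Fcgr1 did not (1.01, adjusted p = 0.0851). The call of Fcgr1 was lost when any library other than WT replicate 2 was left out, at adjusted p of 0.0567 to 0.104, and with a pseudocount of 100 bp, no filter and a limit of 20 kb, at 0.0549 to 0.124.

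Peak width gave another view of the 20 regions called in all 8 libraries. Between DM and WT, 7 were wider in both DM libraries than in both WT libraries and 7 narrower, 35% each, against 14.6% wider and 60.5% narrower of all such regions. Between DM and Npm1c, 10 were wider, 50% against 29.2%, and 3 narrower (at Klf4, Cx3cr1 and Ccr2), 15% against 49.5%. Between DM and Flt3-ITD, 12 were wider, 60% against 41.8%, and 1 narrower, 5% against 19.7%. Between Flt3-ITD and WT none was wider, against 1.77%, and 10 were narrower, 50% against 69.2%. Between Npm1c and WT, 2 were wider, both at Ccr2, 10% against 18.6%, and 8 narrower, 40% against 37.5%.

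A list of 40 other monocyte and macrophage genes was also examined. It was chosen with earlier results of these data known, so it cannot show how far the pattern extends. Of its genes, 34 passed the filter. Between DM and WT, 26 were higher and 1 lower (19.9% and 25.1% of all genes), with a median of 0.83. The limma results of the list are given on scaled lengths only, in all comparisons. As deposited, WT replicate 1 covered 7805 bp at Spi1, against 6093 and 6944 bp in DM, and 7139 bp at Cd180, against 5304 and 6424 bp. It covered 4689 bp at Irf8, against 15274 and 25636 bp in DM, and 2843 bp at Itgam, against 3453 and 5965 bp. Irf8, whose product directs progenitors towards monocytes and dendritic cells, rose by 2.73 (SE 0.20, adjusted p = 1.95e-05), and Itgam, the CD11b integrin, by 1.37 (SE 0.20, adjusted p = 0.000419). Cd300e and the scavenger receptor Msr1 rose by 1.50 and 1.31, and neither had a peak in WT replicate 2. Cd300e had 836 and 0 bp in WT and 1420 and 2272 bp in DM, and Msr1 605 and 0 bp and 1484 and 1205 bp. The gene that fell was Zeb2, a zinc finger repressor, at -1.42 (SE 0.08, adjusted p = 6.91e-06), with 18479 and 19825 bp in WT, 25434 and 24443 bp in Npm1c, 8902 and 9395 bp in Flt3-ITD and 7081 and 6574 bp in DM. Lyz2 had no region. Among the 384 regions of the list, 60 were gained in DM against WT, 15.6% against 6.93% of all regions, 22 of them at Irf8, and 39 were lost, 10.2% against 20.9%, 21 of them at Zeb2.

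Between DM and Npm1c 25 of the 34 were higher and 2 lower (30.4% and 28.9% of all genes), with Irf8 at 3.73, the chemokine gene Ccl9 at 1.99 and Zeb2 at -1.80. Between DM and Flt3-ITD 17 were higher and 1 lower (14% and 19% of all genes), among them the mannose receptor gene Mrc1 and the transcription factor gene Maf, both at 0.94. Between Flt3-ITD and WT 14 were higher and 2 lower (16% and 14.7% of all genes), led by Irf8 (1.15), the phospholipase family gene Pld4 (1.09) and the cathepsin gene Ctss (0.80). Between Npm1c and WT 5 were higher and 5 lower, near the shares of all genes (11.5% and 18.9%): Ccl9 (-0.88) and Csf1r (-0.61), the receptor of the macrophage growth factor M-CSF, fell, and so did Irf8, from 3393 and 2598 bp in WT to 1285 and 1194 bp in Npm1c, while Msr1 (1.23) and Tlr4 (0.67) rose. Msr1 had 605 and 0 bp in WT and 1195 and 1304 bp in Npm1c, so its rise also involves a WT library with no peak. Many genes of the list are also active in dendritic or granulocytic cells. The list, like the 9 genes, was chosen with earlier results of these data known.

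Markers of other cell types moved with the same genotypes. The summed scaled covered length of 10 dendritic markers was 34.7 to 42.1 kb in the 6 libraries outside DM and 62.7 and 72.9 kb in DM, where 8 were higher and 1 lower than in WT. That of 10 neutrophil markers was 6.47 to 13 kb in WT and Npm1c, 19.5 and 16.1 kb in Flt3-ITD and 26.2 and 18 kb in DM. These markers did not move as a set, and Ngp was at 0 in all libraries. As deposited, Mpo covered 930 to 3939 bp in WT and Npm1c and 4070 to 9112 bp in the libraries with Flt3-ITD. S100a9 covered 785 to 1505 bp and 336 to 600 bp in the same libraries, and Camp had no peak with Flt3-ITD. Of the 6 that passed the filter, 3 were higher in DM than in WT and none lower. B-lymphoid markers covered 4.88 to 7.18 kb outside DM and 11.6 and 15.4 kb in DM, with Cd79a and Vpreb1 at 0 in all libraries, and T and NK markers 4.81 to 7.34 kb and 12.4 and 14.3 kb, with Cd3g at 0 in all libraries. Erythroid markers covered 29.9 to 53.7 kb outside DM and 16.2 and 13.9 kb in DM, where 9 of 10 were lower than in WT. Stem and progenitor markers covered 43.3 to 52.1 kb in WT and Npm1c and 34.7 to 39.2 kb in the libraries with Flt3-ITD. They did not move as a set: of the 8 that passed the filter, 5 were lower and 1 higher in DM than in WT (25.1% and 19.9% of all genes). Flt3 is in this list and in the dendritic one. As deposited it covered 6008 and 3918 bp in WT and 7053 and 9668 bp in DM. Stroma and endothelium markers, 10 in all, covered 22.6 and 19.8 kb in WT, 13.9 and 15.9 kb in Npm1c, 17.4 and 17.5 kb in Flt3-ITD and 21.3 and 24.2 kb in DM. Of the 9 of them that passed the filter, 6 were lower in Npm1c than in WT and none higher, 5 higher and 2 lower in DM than in WT, and 6 higher and 1 lower in DM than in Npm1c. The part of these cell types in the results at the 9 genes was not tested.

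Among themselves, F13a1, Fcgr1, Cx3cr1 and Klf4 followed each other most closely over the 8 libraries, with Pearson correlations of 0.936 to 0.969 in scaled log2 covered length, and Ly86 correlated with these 4 at 0.826 to 0.887. Ly6c2 correlated with them at -0.0125 to 0.239 and Ccr2 at 0.143 to 0.507, Ly86 included. Outside the list, the 5 genes whose covered length was most like the mean of the 9, among 7033 genes with at least 5 regions, were Enpp6 (0.999), Pparg (0.996), Errfi1 (0.996), Sorl1 (0.995) and Ptafr (0.994). Enpp6 covered 2886 and 1159 bp in WT, 1652 and 1394 bp in Npm1c, 4280 and 3249 bp in Flt3-ITD and 5711 and 6246 bp in DM. Values over 8 libraries share the length of each list and the 4 genotypes, and are a description.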

How the data were processed

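ATAC-seq peak lists of 8 HSPC libraries were used, 2 for each of 4 genotypes, grouped by the sample titles. Reads were aligned with Bowtie2 and peaks called with MACS2 on mm10, per the submitters' processing notes; versions, thresholds, read shifting and duplicate removal are not given in the sources used here. Lists as deposited by the authors hold 3 columns, chromosome, start and end, of peaks of at least 200 bp, called per library, with no height, p-value or read count, so a short list and few reads cannot be told apart and no interval can be given. A peak is present or absent, and its width is the only measure.

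Peaks on chromosomes 1 to 19 and X were merged into regions and assigned to 21631 protein-coding genes of GRCm38.p6 (94.8% of regions), with Python 3.11.15. Coordinates are counted from 1. Positions in exons, introns or UTRs are not stated. Covered lengths were tested with limma 3.58.1 (R 4.3.3) in 1 fit over all 4 genotypes, with 4 residual degrees of freedom, a mean-variance trend and Benjamini-Hochberg adjustment over 13429 genes; the scripts were tested on simulated data. Alternatives were no scaling, lists cut to equal length by keeping the widest peaks, and other pseudocounts, filters, merging, overlap and distance. A replicate block and each library left out were also tried. The members and lists were chosen with earlier results of these data known. All 9 genes are described; regions were named when gained, lost, split by an allele or called in all libraries, and others of the 40 genes by the largest change, up to 4 in each direction. Same-numbered libraries did not deviate together (correlations of -0.171 to 0.0999), so numbers were not taken to pair them.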

Additional observations from a re-analysis of the deposited data

Results flagged for a closer look

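At 3 genes the effect of the Flt3-ITD allele on covered length differed between mice with and without Npm1c, by limma's interaction term with an adjusted p under 0.05. The difference of the log2 effects was 1.81 at Ly86, 0.71 at Fcgr1 and -1.52 at Ly6c2. At Ly86 the effect was 2.38 with Npm1c and 0.58 without, at Fcgr1 1.45 and 0.74, and at Ly6c2 -0.35 and 1.17. The result at Ly86 passed under all 15 alternatives in which it was fitted, and that at Fcgr1 did not pass under 11 of 15. Ly6c2 was fitted in only 10 and passed in these. It was fitted only where its high Flt3-ITD values carried it over the filter, so these alternatives cannot support its result.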

How the results depend on the processing

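The lists give no read depth, so a missing peak at a gene does not show closed chromatin, and 2 libraries a genotype leave single regions untested. Of the gene-level results recomputed, 686 kept direction and side of the threshold, 46 dropped below it, 28 rose above it and 20 changed sign. Among those that changed sign, only Cx3cr1 and Klf4 in Flt3-ITD against WT (-0.06 and -0.11 without scaling) were past the threshold in the reported setting. The others without scaling were Ly86 (-0.12) and Clec4a2 (-0.23) in Flt3-ITD against WT, and Cd14 (-0.17) and Clec4a2 (-0.01) in DM against WT. With equal lists they were Cd14 in DM against WT (-0.48) and Clec4a2 in DM against Npm1c (0.09) and in the interaction (0.08), and within 20 kb Klf4 in DM against Flt3-ITD (-0.03). Of the counts, 241 stayed within 1.5 times and 67 did not; the causes were not tested, beyond fewer regions under equal lists (65) and 20 kb (49).

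Lists of equal length kept the 43794 widest peaks of each library, so this cut selects on width, which is also the measure tested. Shares of all regions are in brackets. Npm1c against WT then gained 0 (4.71%) and lost 1 (5.03%), and Flt3-ITD against WT gained 10 (5.85%) and lost 0 (6.51%). DM lost 1 against WT (15.4%) and 1 against Npm1c (18.2%) and gained 6 against Flt3-ITD (6.82%). With these lists 7 regions (3.99%) were called in all Flt3-ITD carriers only and 0 (3.9%) in all others only. Within 20 kb, gains and losses were 1 and 1 for Npm1c against WT, 1 and 1 for Flt3-ITD against WT, 8 and 1 for DM against WT, 17 and 2 for DM against Npm1c, 10 and 0 for DM against Flt3-ITD, and 1 region had the carrier pattern, with the shares of all regions as reported.

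Genes called by limma changed as follows, with shares of all genes in brackets. With no filter, 1 was higher in Npm1c against WT (9.62%), 1 lower in DM against Npm1c (27.4%) and 1 higher in the interaction (13.7%). With no scaling, 0 were higher (0.215%) and 1 lower (56%) in Flt3-ITD against WT, and 2 higher (3.83%) in DM against WT. Also unscaled, 1 was higher (8.2%) and 0 lower (3.49%) in DM against Flt3-ITD. In the interaction 1 was then higher (10.2%) and 0 lower (1.74%). With equal lists, 2 were higher in Flt3-ITD against WT (8.98%), and 0 lower in DM against Flt3-ITD (15.1%) and in the interaction (10.6%). Within 20 kb, 0 were lower in DM against Flt3-ITD (20%) and in the interaction (14.1%). With a pseudocount of 100 bp, 1 was higher in the interaction (14%). With so few genes, a count of 0 or 1 says little beside these shares. Ly6c2 was below the filter without scaling, with equal lists, within 20 kb and without either Flt3-ITD library, which accounts for its lost calls.

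With each library left out in turn, regions gained and lost ranged over 2 to 5 (3.36% to 7.49% of all regions) and 7 to 26 (7.4% to 17.3%) for Npm1c against WT, 4 to 16 (0.886% to 4.62%) and 5 to 18 (16.9% to 29.7%) for Flt3-ITD against WT, 16 to 34 (6.97% to 15.7%) and 5 to 10 (22.3% to 29.4%) for DM against WT, and 20 to 30 gained (11.9% to 19.9%) for DM against Flt3-ITD. Regions with the Flt3-ITD carrier pattern ranged over 2 to 9 (0.572% to 2.43%), the opposite pattern over 1 to 2 (8.45% to 11.7%), and regions in all libraries without Npm1c only over 0 to 1 (0.223% to 0.853%). The limma fits of this kind leave 1 library in a genotype, so the genes that passed in them are not counted here. Signs changed in Npm1c against WT at F13a1 (-0.55 to 0.27), Fcgr1 (-0.39 to 0.10), Cx3cr1 (-0.28 to 0.15) and Cd14 (-1.11 to 0.09), in Flt3-ITD against WT at Ccr2 (-0.45 to 0.07) and Cd14 (-1.04 to 0.16), and in DM against WT at Ly6c2 (-0.06 to 0.05) and Cd14 (-0.45 to 0.74). A lone library of a genotype was assumed to vary like the others.

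With the replicate number as a block, Ly86 passed in Flt3-ITD against WT (0.58, adjusted p = 0.0284) and DM against Flt3-ITD (0.49, adjusted p = 0.0489), and F13a1 in the interaction (1.06, adjusted p = 0.0326); no other call changed by limma.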

Other observations

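Regions beyond 100 kb of any listed gene were left out by the rule. Of those whose nearest gene was Klf4, which reached to 581602 bp away, 6 were called in both DM libraries and in no other. That pattern was found at 5.13% of all regions, and other regions nearest to Klf4 had peaks in other genotypes or in 1 DM library. The 6 lay 123040, 126656, 132566, 197983, 282532 and 327735 bp upstream of the gene, and were covered over 200 to 398 bp in DM. A wider region 119092 bp away had peaks in every library, of 1042 and 554 bp in WT, 611 and 662 bp in Npm1c, 726 and 1038 bp in Flt3-ITD and 1195 and 1257 bp in DM. Of the regions nearest to Ly86, another called in DM only lay 141978 bp away, over 283 and 322 bp. On the F13a1 side of Ly86, a region 130180 bp upstream was called in all 4 libraries with Flt3-ITD, over 200 and 341 bp in Flt3-ITD and 366 and 361 bp in DM, and in none of the others. These regions were chosen after their values were seen and are not among the 87.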
